A study of Mus musculus with 2 samples.

Results

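C/D box small nucleolar RNAs (snoRNAs) were followed in the small RNA libraries of J1 cells, a mouse embryonic stem cell (mESC) line. The cells were grown without feeders on gelatin with 1000 U/mL leukemia inhibitory factor (LIF) for both treatments, and received for 24 h either 1 μM PD0325901 (PD), an inhibitor of the kinase MEK, or an equal volume of its solvent DMSO. RNA from 3 independent experiments was pooled per treatment before sequencing, so there was 1 library for DMSO (18870345 clean reads) and 1 for PD (20944808 clean reads). No difference below has a replicate check, treatment and library cannot be told apart, and every interval given is a 95% interval for counting error only. Reads of the miR-290-295 hairpins, a miRNA cluster typical of mESCs, made up 3.33% and 2.86% of the clean reads.

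A tag, here a distinct read sequence with its read count, was taken as a C/D box snoRNA fragment when its whole length matched perfectly a transcript of biotype snoRNA in GENCODE M21 whose symbol begins with Snord, and matched no miRNA hairpin. Of 1695245 distinct tags in the series, 1870 met this rule, 1248 in the DMSO library and 1374 in the PD library. They came from all 98 annotated Snord genes, of which 55 reached 1 read per 1000000 clean reads (RPM) in at least 1 library and are called detected. The libraries were cut from the gel at 18 to 30 nt and the longest fragment was 33 nt, whereas the annotated Snord RNAs are 64 to 238 nt long, so what was measured is fragments and not the full-length snoRNAs.

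C/D box snoRNAs are nucleolar RNAs, most of them released from the introns of host genes. They carry a C box near the 5′ end and a D box near the 3′ end, pair with ribosomal or spliceosomal RNA and guide 2′-O-methylation by the enzyme fibrillarin, while a few of them act in the cleavage of the pre-rRNA and others, the orphans, have no known target. The annotation matched this description, since 70 of the 98 genes held TGATGA, the usual form of the C box, in their first 20 bases and 96 held CTGA, the core of the D box, in their last 20 bases. Of the 42 H/ACA box snoRNA genes (Snora), the other large class, 0 held TGATGA at any position and 5 held CTGA in the last 20 bases. Of the 98 genes, 95 lay within a host gene, and 41 of these also overlapped an exon of another transcript, mostly one with a retained intron.

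The sequences of 11 of the 12 snoRNA genes with the most reads are shown with those of Snord93, Snord78 and Snord98, which turn up again in the comparison of the treatments. Each is the sense strand from 5′ to 3′ from GENCODE M21 (build GRCm38), and the capitals mark the most frequent tag of both libraries together.
Snord14c (chr9:40803583-40803668, plus strand): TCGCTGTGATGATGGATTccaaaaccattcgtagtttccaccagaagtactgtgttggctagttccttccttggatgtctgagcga
Snord14d (chr9:40803995-40804080, plus strand): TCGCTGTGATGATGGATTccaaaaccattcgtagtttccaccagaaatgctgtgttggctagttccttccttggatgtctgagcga
Snord69 (chr14:31014287-31014366, minus strand): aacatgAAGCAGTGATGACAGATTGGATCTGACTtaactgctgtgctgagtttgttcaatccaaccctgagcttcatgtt
Snord45c (chr3:153912125-153912204, minus strand): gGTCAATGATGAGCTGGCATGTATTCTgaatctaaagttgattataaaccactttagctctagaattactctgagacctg
Snord2 (chr16:23108953-23109021, plus strand): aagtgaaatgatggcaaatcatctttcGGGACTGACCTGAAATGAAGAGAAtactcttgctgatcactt
Snord118 (chr11:69073427-69073561, plus strand): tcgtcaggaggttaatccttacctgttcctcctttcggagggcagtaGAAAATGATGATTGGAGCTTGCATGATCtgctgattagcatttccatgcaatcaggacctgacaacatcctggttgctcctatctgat
Snord82 (chr1:86356261-86356330, minus strand): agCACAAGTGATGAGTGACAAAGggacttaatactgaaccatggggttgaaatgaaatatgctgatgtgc
Snord49a (chr11:62603450-62603521, plus strand): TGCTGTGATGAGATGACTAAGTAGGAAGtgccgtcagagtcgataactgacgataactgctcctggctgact
Snord22 (chr19:8725866-8725991, plus strand): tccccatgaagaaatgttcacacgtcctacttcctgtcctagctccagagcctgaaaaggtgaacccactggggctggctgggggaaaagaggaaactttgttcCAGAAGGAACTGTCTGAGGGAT
Snord17 (chr2:144265979-144266216, minus strand): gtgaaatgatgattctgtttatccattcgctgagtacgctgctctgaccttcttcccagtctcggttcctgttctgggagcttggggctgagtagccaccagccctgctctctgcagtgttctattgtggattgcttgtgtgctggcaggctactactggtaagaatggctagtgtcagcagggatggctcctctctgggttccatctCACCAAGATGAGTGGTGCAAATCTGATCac
Snord57 (chr2:130278016-130278087, plus strand): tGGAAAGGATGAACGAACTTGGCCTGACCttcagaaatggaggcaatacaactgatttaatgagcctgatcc
Snord93 (chr5:23852210-23852280, plus strand): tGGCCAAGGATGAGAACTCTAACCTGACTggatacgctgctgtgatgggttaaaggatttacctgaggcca
Snord78 (chr1:161036984-161037049, plus strand): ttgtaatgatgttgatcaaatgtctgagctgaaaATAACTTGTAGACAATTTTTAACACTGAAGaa
Snord98 (chr10:62765576-62765640, minus strand): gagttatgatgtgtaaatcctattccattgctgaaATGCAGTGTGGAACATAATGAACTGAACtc
Snord14c and Snord14d, both in introns of Hspa8, are identical over their first 46 bases and shared nearly all their reads, so they are treated as 1 source. The capitals show how the position differed between snoRNAs. They lay at or close to the 5′ end in Snord14c, Snord69, Snord45c, Snord82, Snord49a, Snord57 and Snord93, in the middle in Snord2 and Snord118, and at or close to the 3′ end in Snord22, Snord17, Snord78 and Snord98.

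Snord fragments made up a small and similar part of both libraries. They accounted for 17217 reads in the DMSO library, or 912 RPM, and 20142 reads in the PD library, or 962 RPM, a PD to DMSO ratio of 1.05 (interval 1.03-1.08). In RNA from whole cultures, fewer cells with a fragment and less of it per cell cannot be told apart. Set against the reads expected if every length had moved like all clean reads of that length, the ratio was 0.974. Fragments of the H/ACA box snoRNAs had a ratio of 0.845 (0.801-0.892), from 148 to 125 RPM. The Snord genes held 7.40% and 7.59% of all reads with a match to transcripts of biotype snoRNA, most of the rest belonging to Rnu3, the U3 snoRNA, and to Gm23212. The rule goes by symbol, so Rnu3, with 101687 reads with DMSO and 96578 with PD, is left out. The counts here are therefore of Snord genes and not of every C/D box RNA. Antisense matches to Snord genes came to 1 read and 3 reads, at or under the floor of 3 reads.

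Within the class the reads were concentrated on a few genes. The 12 genes with the most reads took 79.1% of the Snord reads in the DMSO library and 77.6% in the PD library, and the Snord14 genes alone 27.9% and 25.6%. At the other end, 3 genes had 3 reads or fewer in both libraries. Some reads cannot be given to a single gene, because tags that matched several Snord genes held 26.8% and 24.8% of the reads, nearly all of them Snord14c and Snord14d tags.

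Most of the fragments started at the 5′ end of the snoRNA. Tags that began within the first 10 bases held 69.7% (interval 69.0-70.4) of the Snord reads with DMSO and 69.3% (68.6-69.9) with PD. Tags that ended within the last 10 bases held 13.1% and 14.6%, and internal tags 17.1% and 16.2%. Without the Snord14 genes the 5′ share was 58.1% and 58.9%. The counting intervals of the 5′ shares of the 2 libraries overlapped.

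Individual snoRNAs with many reads mostly gave fragments from a single place. Of the 35 genes with 100 reads or more in all, 20 had over 80% of their reads from the 5′ end. Another 4 had them from the 3′ end and 4 from the interior. Snord14c and Snord14d are both counted among the 20. Of the 76 genes with 20 reads or more, the counts were 30, 8 and 6. Snord14c, a U14 RNA that acts in pre-rRNA processing, had 99.7% of its reads at the 5′ end, and Snord22, the U22 RNA of the same process, had 98.2% at the 3′ end. Snord2 and Snord118, the U8 RNA needed for maturation of the large-subunit rRNAs, had 96.2% and 95.2% of their reads in the interior. Snord17 gave 2 separate groups of tags, with 67.5% of its reads at the 3′ end and 32.2% inside, and Snord21 divided between the 5′ end (48.2%) and the 3′ end (51.3%).

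**Figure D1:**
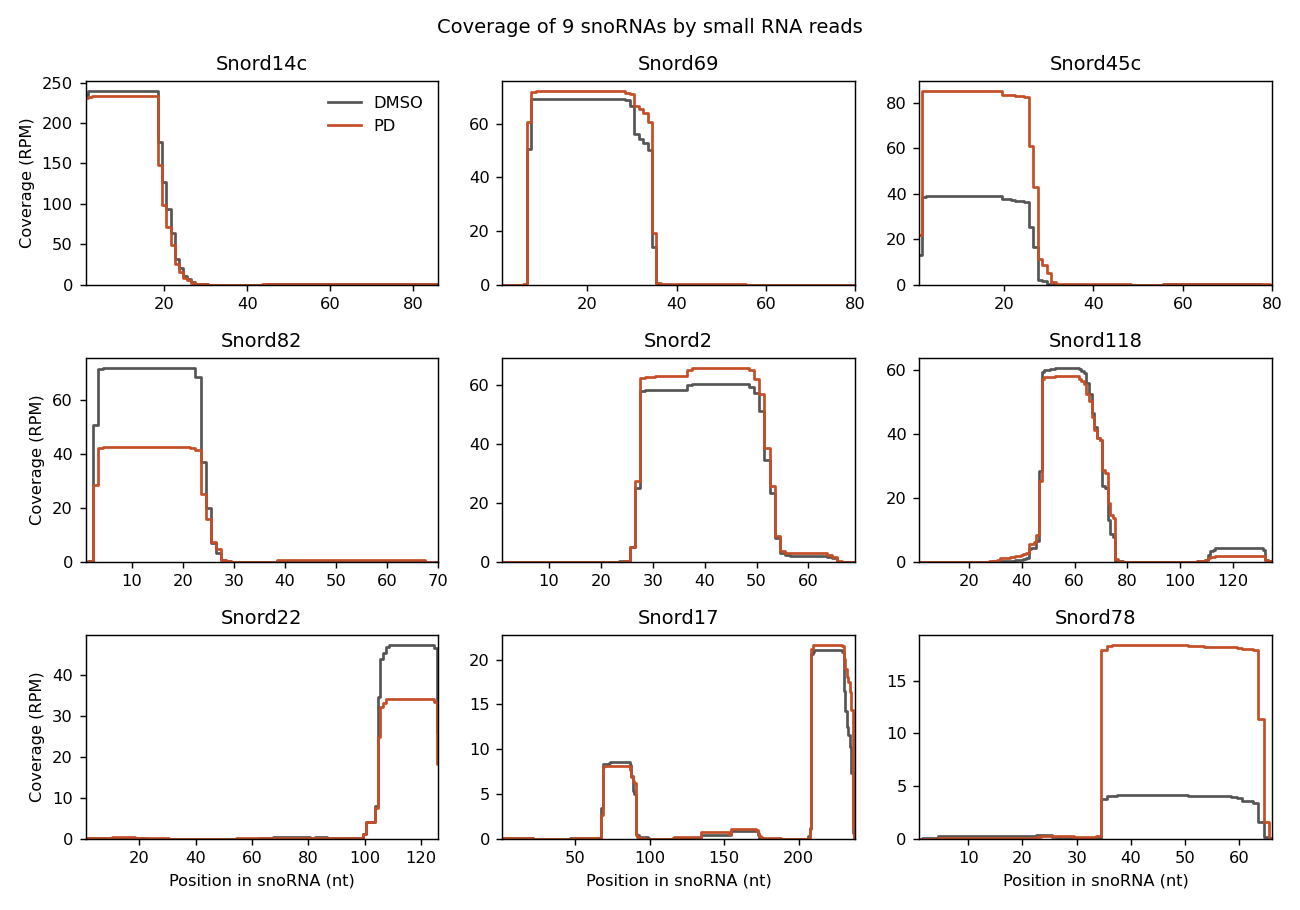
Coverage along 9 snoRNAs in the DMSO (grey) and PD (orange) libraries; the horizontal axis is the position in the snoRNA in nt and the vertical axis the reads covering it in RPM. Each snoRNA was covered over 1 or a few short stretches that lay at the same place in both libraries, at the 5′ end in Snord14c, in the interior in Snord2 and at the 3′ end in Snord22, and the height differed most in Snord78, Snord45c and Snord82.

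The starts and ends of the fragments were also set against the box motifs, on the transcript strand only. The form TGATGA was present in 74 of the 98 genes, and CTGA in all 98; a CTGATGA counts for both. In the genes with TGATGA, tags that began 5 or 6 nt before it held 86.8% of the reads with DMSO and 85.9% with PD, against 2.99% of all possible windows of 18 to 32 nt in these genes. Without the Snord14 genes the shares were 80.1% and 79.3%. Of the 44 genes with the motif and 20 reads or more, 26 had most of their reads start there. These distances were the ones with the most reads in both libraries, so the shares are a description. In 70 of the 98 genes TGATGA lay in the first 20 bases, so most such starts were also close to the annotated 5′ end. The windows covered the whole snoRNA, so the comparison does not separate the motif from the 5′ end. Which of them the starts follow was not tested. In Snord14c, the most frequent tag began 6 nt before the motif, and in Snord82 and Snord45c, guides for small-subunit rRNA, the capitals in the sequences begin just before it as well.

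The position of the 3′ ends depended on the length of the fragment. Of the reads of 28 to 32 nt, 50.9% with DMSO and 48.8% with PD ended exactly 2 nt after a CTGA, whereas 3.35% of all possible windows of these lengths do. Of the reads of 20 to 24 nt only 1.86% and 2.79% ended there, against 3.08% of windows. Snord69 contributed many of the long tags, and without it the share was 42.0% and 44.3%. This distance was chosen after the ends had been seen, and no test was made of it. Of the 24 genes with 20 reads or more of 28 to 32 nt, 9 had their most frequent long tag end there. For Snord69, Snord57 and Snord93 it was a CTGA inside the snoRNA, and for Snord17, Snord78, Snord85, Snord98, Snord38a and Snord1b the last one, next to the 3′ end. In the other 15 genes the most frequent long tag ended elsewhere, as in Snord49a, a guide for large-subunit rRNA, where it ended 22 nt before the nearest CTGA. Less frequent long tags of Snord49a did end 2 nt after its last CTGA. Those of bases 43 to 72 went from 15 reads with DMSO to 62 with PD, and those of bases 42 to 72 from 0 to 58.

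**Figure D2:**
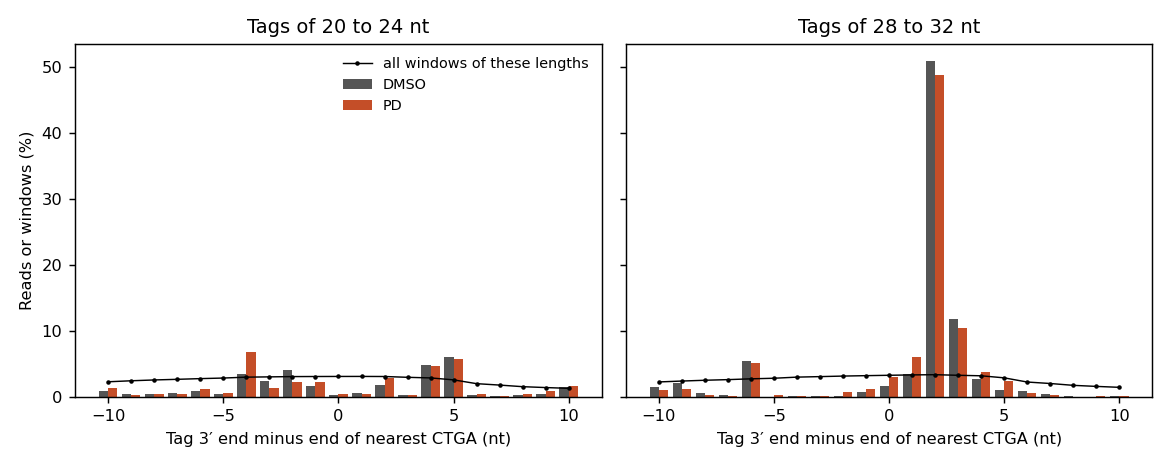
Distance in nt from the end of the nearest CTGA to the 3′ end of the tag (horizontal axis, from 10 nt before to 10 nt after), for tags of 20 to 24 nt and of 28 to 32 nt. Bars give the percent of Snord reads of that length in the DMSO (grey) and PD (orange) libraries and the line the percent of all possible windows; the bar at 2 nt reached 50.9% and 48.8% in the long tags alone.

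The lengths of the fragments differed more between the libraries than their amount or position. With DMSO the Snord reads had peaks at 21 to 22 nt and at 28 nt. With PD the lower peak was reduced, and the reads of 28 to 32 nt made up 26.4% (interval 25.8-27.03) of the Snord reads, compared with 15.3% (14.8-15.9) with DMSO. Reads of 20 to 24 nt made up 48.2% with DMSO and 34.8% with PD, those of 18 to 19 nt 17.1% and 18.1%, and those of 25 to 27 nt 19.4% and 20.7%.

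**Figure D3:**
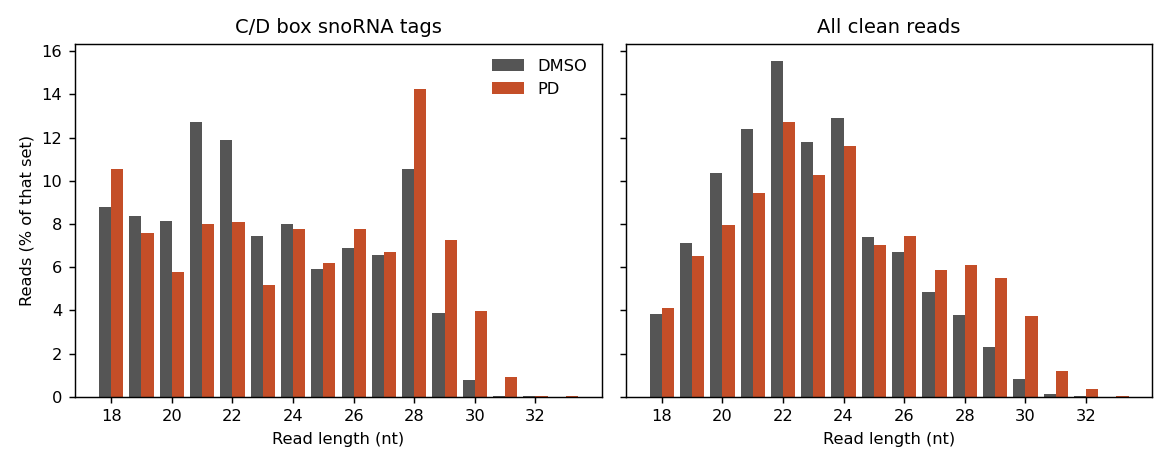
Length of the reads of C/D box snoRNA tags (left) and of all clean reads (right), as percent of the reads of that set, in the DMSO (grey) and PD (orange) libraries. At 28 nt the Snord reads had a peak in both libraries (10.6% and 14.3%) that all clean reads lacked (3.81% and 6.11%), and in both sets the PD library held more of the reads over 27 nt.

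The same shift was present in the libraries as a whole. Of all clean reads, those of 28 to 32 nt made up 7.11% with DMSO and 17.0% with PD, and those of 20 to 24 nt 63.0% and 52.0%. In RPM, the PD to DMSO ratio of the Snord reads was 0.762 (0.738-0.787) at 20 to 24 nt and 1.82 (1.74-1.91) at 28 to 32 nt, compared with 0.826 and 2.38 for all clean reads and 0.795 (0.741-0.853) and 1.59 (1.22-2.10) for the H/ACA box snoRNAs. The ratio of the Snord reads was 1.42 at 28 nt, 1.97 at 29 nt, 5.23 at 30 nt and 20.3 (10.1-47.7) at 31 nt, where there were 8 reads with DMSO and 180 with PD. All clean reads had ratios of 1.61, 2.39, 4.53 and 8.73 at these lengths. What part the length mix of the libraries had in the changes of single snoRNAs was not tested, and the genes are given below also against clean reads of the same lengths.

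Single tags showed the dependence on length most directly. Of the Snord tags, 167 reached 1 RPM in at least 1 library, and of these 37 were at least 1.5-fold higher and 39 at least 1.5-fold lower with PD, shares near those of all tags at this level (21.5% and 25.6%). Of the 42 tags of 28 to 32 nt, 30 were higher and 0 lower, where 72.6% and 2.01% of all tags of these lengths were. Of the 71 tags of 20 to 24 nt, 2 were higher and 30 lower, where 9.14% and 32.8% of all such tags were. Of the 40 tags of 25 to 27 nt, 4 were higher and 5 lower (18.4% and 16.4% of all such tags), and of the 14 tags of 18 to 19 nt, 1 was higher and 4 lower (29.7% and 28.6%). Because 1 RPM in 1 library was enough, a tag could enter only through the library where it was high. The 31-nt Snord93 tag did so with 0.159 RPM with DMSO and 2.58 with PD. A 20-nt Snord82 tag did so in the other direction, with 2.91 and 0.477 RPM. The shares of all tags carry the same limit. No test was possible with 1 library per treatment.

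The direction followed the length also within single snoRNAs. In all 17 genes with 20 reads or more in both length classes, the PD to DMSO ratio was larger for tags of 28 to 32 nt than for tags of 20 to 24 nt (Snord14c and Snord14d counted once in these counts). All 18 genes with 50 reads or more of 28 to 32 nt had a higher RPM of them with PD, and 22 of the 27 genes with 50 reads or more of 20 to 24 nt had a lower RPM. All clean reads had ratios of 2.38 and 0.826 in these classes, so the libraries as a whole moved in the same directions. The share of all small RNA genes under the same filters is not given here. The counts therefore do not set snoRNAs apart from other small RNAs. The filters sum both libraries, so a gene can pass mainly on reads of the library where it is high. Snord19 did so with 2 reads of 28 to 32 nt with DMSO and 51 with PD. Snord69, a guide for large-subunit rRNA, moved in both directions: its tags of 20 to 24 nt went from 279 to 134 reads, a ratio of 0.433 (0.349-0.534), and those of 28 to 32 nt from 861 to 1155 reads, a ratio of 1.21 (1.11-1.32). Snord118 went from 586 to 468 reads in the shorter class (0.720, 0.636-0.814) and from 154 to 319 in the longer class (1.87, 1.53-2.28). Snord17 had tags of 28 and 22 nt with the same start at base 209, of which the longer one, ending 2 nt after the last CTGA, went from 123 to 261 reads and the shorter one from 74 to 26 reads.

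At the level of genes, the change was unequal between snoRNAs. Of the 55 detected genes, 13 were at least 1.5-fold higher with PD, or 23.6%, where 18.1% of all 1367 small RNA genes at this level were, and 6 were at least 1.5-fold lower, or 10.9%, where 6.44% of all were. The median log2 fold change of the detected genes was 0.03, and that of all small RNA genes was 0.06. Of the 13 higher genes, 8 had a counting interval above 1, and of the 6 lower genes, 3 had an interval below 1. A gene could be detected only through the library where it was high. Snord8, among the higher genes, had 0.583 RPM with DMSO and 1.29 with PD. Snord88c, among the lower genes, had 1.27 and 0.716 RPM. The shares of all small RNA genes carry the same limit. Against clean reads of the same length, 4 genes were at least 1.5-fold higher, 3 of them among the 13, and 8 at least 1.5-fold lower, 5 of them among the 6.

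**Figure D4:**
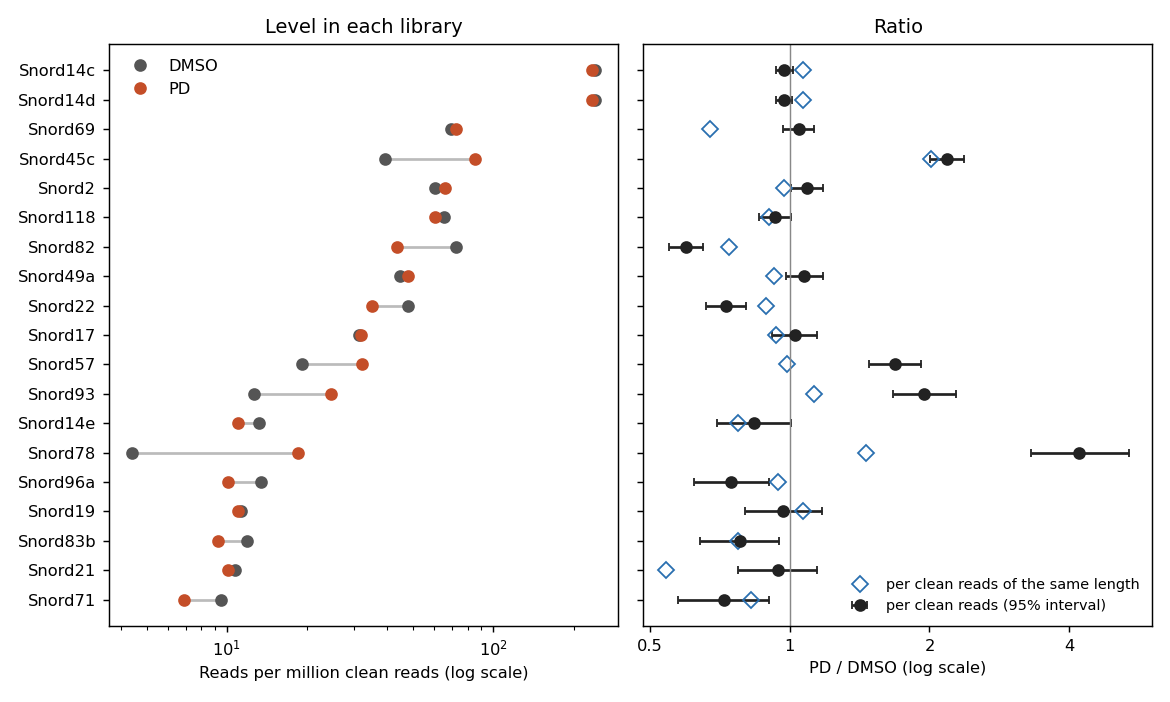
Of the 20 Snord genes with the most reads, 19 are shown. Left, RPM (log axis) in the DMSO (grey) and PD (orange) libraries; right, the PD to DMSO ratio (log axis) per clean reads with its 95% counting interval (black) and against clean reads of the same length (open diamonds). Snord78 and Snord45c had the highest ratios, 4.20 and 2.18, and Snord82 the lowest, 0.598; of Snord78, Snord93 and Snord57 the diamonds lie far to the left of the points.

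Among the Snord genes, the RNAs that act in pre-rRNA processing (Snord14a, Snord14c, Snord14d and Snord14e, Snord118, Snord22 and Snord13) were all detected. U3, annotated as Rnu3, is outside the rule and not in this list. Of the 7, 0 changed 1.5-fold in either direction, where 18.1% of all small RNA genes were higher and 6.44% lower. The 7, with Snord14c and Snord14d a single source, are too few to be set apart from those shares. Together the 7 had 7126 reads with DMSO and 7296 with PD, a ratio of 0.922 (0.893-0.953). Snord14c, the source of the most fragments, had 4543 and 4909 reads, 241 and 234 RPM, a ratio of 0.974 (0.935-1.01). Its reads formed a ladder of tags from base 1, in which the 18-nt tag went from 1187 to 1795 reads, a ratio of 1.36 (1.27-1.47), while the 21-nt tag went from 545 to 428, a ratio of 0.708 (0.622-0.805). Snord118 had 1230 and 1267 reads, 65.2 and 60.5 RPM (0.928, 0.857-1.00).

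Snord22 and Snord13 had the lowest ratios within this group. Snord22, from an intron of the noncoding gene Snhg1, had 905 reads with DMSO and 732 with PD, 48.0 and 34.9 RPM, a ratio of 0.729 (0.660-0.804) and 0.888 against reads of the same length. Snord13, the U13 RNA, which has its own gene and no host, had 179 and 139 reads, 9.49 and 6.64 RPM (0.700, 0.556-0.878). Both lay short of the 1.5-fold limit.

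Among the guides of rRNA methylation, Snord45c rose, and its tags of 20 nt and longer did so in each length class. It lies in an intron of Rabggtb, with an exon of another transcript over it, and guides a site in small-subunit rRNA. Its reads went from 740 to 1791, or 39.2 to 85.5 RPM, a ratio of 2.18 (2.00-2.38), and the ratio against clean reads of the same length was 2.02. Its tags of 20 to 24 nt rose from 195 to 440 reads, a ratio of 2.03 (1.71-2.42). All Snord reads of these lengths had a ratio of 0.762 and all clean reads 0.826. The Snord45c tags of 25 to 27 nt rose from 477 to 1080 reads, a ratio of 2.04 (1.83-2.28). Those of 28 to 32 nt rose from 39 to 230, a ratio of 5.31 (3.77-7.67). Its tags of 18 to 19 nt had 29 and 41 reads, a ratio of 1.27 (0.773-2.13), with an interval that held 1. The most frequent tag, which runs from base 2 to 27, went from 180 to 512 reads, a ratio of 2.56 (2.16-3.05). The tag that began at base 1 and ended at the same base 27 went from 93 to 145 reads (1.40, 1.08-1.84). Snord45b, from another intron of Rabggtb, had 18 and 19 reads, 0.954 and 0.907 RPM.

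Snord78, Snord93 and Snord57 also rose, and their fragments were mainly long. Snord78, a guide for large-subunit rRNA in an intron of the growth-arrest gene Gas5, had the largest ratio of all genes at 10 RPM or more, with 83 reads at DMSO and 387 at PD, 4.40 and 18.5 RPM (4.20, 3.31-5.39). Tags of 28 to 32 nt were 81.9% of its reads with DMSO and 97.4% with PD, and its 30-nt tag, which covers bases 35 to 64 and ends 2 nt after the last CTGA, went from 25 to 202 reads (7.28, 4.79-11.5). The 29-nt tag that is 1 base shorter at its 3′ end went from 32 to 133 reads (3.74, 2.53-5.69), and the 31-nt tag from 0 to 27 reads. Against clean reads of the same length, the ratio of Snord78 was 1.46. The other Gas5 snoRNA that was detected, Snord47, had 45 and 42 reads, 2.38 and 2.01 RPM, and none of 28 to 32 nt.

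Snord93 and Snord57 guide methylation of small-subunit rRNA. Snord93, in an intron of the noncoding gene 2700038G22Rik, had 239 and 516 reads, 12.7 and 24.6 RPM (1.95, 1.67-2.28). Its 28-nt tag went from 75 to 153 reads, and a 31-nt tag with the same start from 3 to 54 (16.2, 5.26-81.1). Snord57, in an intron of Nop56, which encodes a core protein of C/D box particles, had 361 and 675 reads, 19.1 and 32.2 RPM (1.68, 1.48-1.92), with a 29-nt tag that went from 91 to 232 reads (2.30, 1.79-2.96). Against clean reads of the same length the ratio was 1.13 for Snord93 and 0.987 for Snord57, so the rise of Snord57 was no larger than that of all reads of its lengths.

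Snord82 had the largest fall of the genes at 10 RPM or more. It lies in an intron of Ncl, the gene of nucleolin, and guides small-subunit rRNA methylation. Its reads went from 1367 to 907, or 72.4 to 43.3 RPM, a ratio of 0.598 (0.549-0.651) and of 0.740 against clean reads of the same length. Nearly all its reads were 20 to 24 nt long, and in this class they fell from 1319 to 832 (0.568, 0.520-0.620). The fall was further than the 0.762 of all Snord reads and the 0.826 of all clean reads of that class. The few longer reads of Snord82 were more with PD. They numbered 34 and 55 for 25 to 27 nt (1.46, 0.933-2.31) and 3 and 10 for 28 to 32 nt. Both intervals held 1. Its 6 most frequent tags were all lower with PD, led by the 21-nt tag over bases 3 to 23, which went from 465 to 261 reads (0.506, 0.433-0.590). The next lowest ratios at this level were short of 1.5-fold and came to 0.729 for Snord22, 0.748 (0.621-0.902) for Snord96a from Rack1, 0.780 (0.640-0.950) for the orphan Snord83b from Rpl3, and 0.836 (0.696-1.00) for Snord14e from Hspa8.

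Several other genes among the 20 with the most reads had ratios between 0.721 and 1.09. Snord69 had 1307 and 1515 reads, 69.3 and 72.3 RPM (1.04, 0.969-1.13), but 0.673 against clean reads of the same length. Its tags of 28 to 32 nt had a ratio of 1.21, where all clean reads had 2.38. Its tags of 20 to 24 nt had 0.433, where all clean reads had 0.826. Snord2, from Eif4a2, had 1141 and 1382 reads (1.09, 1.01-1.18), and its tags of 20 to 24, 25 to 27 and 28 to 32 nt had ratios of 1.00, 1.15 and 1.08. Snord49a had 842 and 1004 reads (1.07, 0.979-1.18) and Snord17 had 589 and 670 (1.02, 0.916-1.15). Snord19, from Gnl3, had 214 and 230 reads (0.968, 0.800-1.17), yet its 28-nt tag from base 1 went from 1 to 34 reads (30.6, 5.14-1245). Snord21 had 203 and 212 (0.941, 0.772-1.15), and 0.541 against clean reads of the same length, which was at least 1.5-fold lower. Snord71 had 180 and 144 (0.721, 0.575-0.902).

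The share of long tags and the ratio of a gene went together across the 35 genes with 100 reads or more, Snord14c and Snord14d both counted. Of the 7 genes with 50% or more of their reads at 28 to 32 nt, all 7 were higher with PD and 6 of them at least 1.5-fold (Snord57, Snord93, Snord78, Snord85, Snord98 and Snord38a). Snord69 was the exception at 1.04. Of the 13 genes with under 10% of such reads, 3 were higher with PD, none of them by 1.5-fold, and 2 were at least 1.5-fold lower, Snord82 and Snord100. For comparison, 18.1% of all small RNA genes were at least 1.5-fold higher and 6.44% lower. Of all tags of 28 to 32 nt, 72.6% were higher and 2.01% lower. Snord85, with 76 and 198 reads (2.35, 1.79-3.10), and Snord98, a guide for small-subunit rRNA with 63 and 152 reads (2.17, 1.61-2.96), had ratios of 1.34 and 1.41 against clean reads of the same length. Snord45c lay outside this pattern, with 5.27% of its reads in the long class with DMSO and 12.8% with PD. The lengths enter both measures and the libraries are the same, so this is a description.

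**Figure D5:**
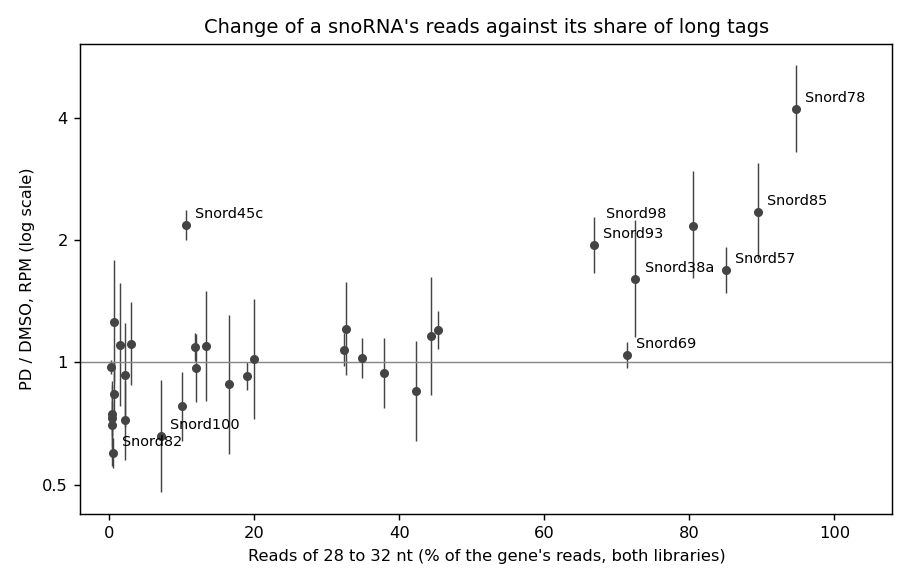
PD to DMSO ratio in RPM (vertical, log axis, with 95% counting interval) against the percent of a gene's reads that were 28 to 32 nt long in both libraries together (horizontal), for the Snord genes with 100 reads or more, Snord14c standing also for Snord14d. The genes above 60% lay above 1, Snord78 highest at 4.20, and Snord45c stood alone at 2.18 with few long reads.

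The smaller groups of snoRNAs gave few fragments. Each had 2 detected genes, too few to be set apart from the 18.1% higher and 6.44% lower of all small RNA genes. Of the 3 guides of spliceosomal RNA (Snord7, Snord8 and Snord67), 2 were detected and 1, Snord8 from an intron of Chd8, was at least 1.5-fold higher, with 11 reads at DMSO and 27 at PD (2.21, 1.06-4.94). The 3 together had 34 and 66 reads (1.75, 1.14-2.73). Of the 19 orphan snoRNAs of the imprinted domain on chromosome 7, known for its brain-expressed repeats, 2 were detected, Snord107 with 34 and 31 reads and Snord64 with 35 and 25 reads, of which Snord64 was at least 1.5-fold lower (0.644, 0.369-1.11). The 17 Snord116 copies of the domain shared their tags and had 10 and 13 reads in all. Of the 4 snoRNAs in the introns of the ribosomal protein gene Rpl13a, 2 were detected and Snord34 was lower, with 60 and 36 reads (0.541, 0.347-0.831).

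By host gene, the reads from introns of ribosomal protein genes had a ratio close to 1 in sum, with 1805 and 2110 reads over 21 genes (1.05, 0.989-1.12). Of their 14 detected genes, 1 was at least 1.5-fold higher and 3 lower, counts that here and in the other host groups stand beside the 18.1% higher and 6.44% lower of all small RNA genes. The 35 genes in other protein-coding hosts had 11387 and 13365 reads (1.06, 1.03-1.08), with 6 of 23 detected genes higher and 3 lower. The 4 annotated Gas5 genes, among them overlapping records of the same Snord80 with the same reads, had 134 and 434 reads (2.92, 2.40-3.57), of which Snord78 held 83 and 387. The 23 snoRNAs in Snhg genes, noncoding snoRNA hosts, had 991 and 852 reads (0.775, 0.706-0.850), which were mainly Snord22, whereas 3 of their 5 detected genes were at least 1.5-fold higher, Snord50a and Snord50b of Snhg5 and Snord87 of Snhg6, each with an interval that reached below 1. Snord50a and Snord50b shared 94.5% and 82.5% of their reads, with 20 and 35 reads for Snord50a and 23 and 40 for Snord50b, and are close to a single source. The 12 genes in other noncoding hosts had 1482 and 1956 reads (1.19, 1.11-1.27), with 1 of 8 detected genes higher, and of the 3 genes without a host, Snord104 was higher, from 15 to 25 reads (1.502, 0.761-3.06).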

How the data were processed

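The authors cut small RNA of 18 to 30 nt from a gel, ligated adaptors, amplified by PCR and sequenced, and the deposited files give each distinct clean read with its count (counts, not normalized, without molecular identifiers). Adaptors and low-quality reads had been removed. The labels name mm9; the aligner is not given in the sources used here. The last line of each file, a total without a tag, was left out. Tags were matched on the sense strand, without mismatch, to GENCODE M21 (GRCm38); polymorphic or modified fragments are missed. Transcripts named as miRNA hairpins (1178) were matched first. A tag that matched several Snord genes counted in full for each and once in totals.

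RPM is reads per 1000000 clean reads. With 1 library per treatment neither the quasi-likelihood test of edgeR nor DESeq2 could be fitted, and no p is given; a gene was called at a 1.5-fold difference and 1 RPM in at least 1 library. Intervals of shares and ratios are exact 95% Clopper-Pearson intervals, and the floor was 3 reads. Small RNA genes are all GENCODE small RNA genes with matched tags. Named genes are the 20 with the most reads and the 5 largest rises and falls at 10 RPM or more; others were named after their values were seen. Of the named genes, 1 is not reported here. Genes, lists and roles were chosen with earlier results of these data known. Matching and intervals were tested on simulated data. Alternatives used edgeR 4.0.16, DESeq2 1.42.0, R 4.3.3, Python 3.11.15, pandas 2.3.3 and scipy 1.17.1.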

Additional observations from a re-analysis of the deposited data

How the results depend on the processing

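With 1 library per treatment no library could be left out, and differences are limited by counting error and by having 1 pool each. No paired analysis was possible because each treatment had 1 library. The ratio of all Snord reads, 1.05, was 1.21 per miRNA hairpin read, 1.28 per clean read of 20 to 24 nt, 1.02 with TMM of edgeR, 1.09 without the Snord14 genes, and below 1, at 0.974, against clean reads of the same length; the last 2 alternatives were chosen after seeing the data. The number of lower genes, 6, was 2 per hairpin read and 1 per clean read of 20 to 24 nt, and the number of higher genes, 13, was 4 against the same length, of which 3 were among the 13. With no filter on low counts 22 genes were higher and 10 lower, at 10 RPM or more 4 and 1, at 2-fold 5 and 0, and with an interval that leaves out 1, 8 and 3. The 5′ share was 66.5% (DMSO) and 65.0% (PD) for tags of 20 nt or more, 60.4% and 60.4% with the end set at 5 bases, 44.2% and 42.4% over distinct tags, and 58.1% and 58.9% without Snord14. The share of 28 to 32 nt was 18.5% and 32.3% for tags of 20 nt or more and 20.7% and 34.9% without Snord14c, and for PD 21.98% over distinct tags. The cause of these differences was not tested beyond what each alternative leaves out. Of 198 recomputed ratios of the 20 named genes, 154 stayed inside the interval, and 22, in 12 genes, lay on the other side of 1. Among the named genes past 1.5-fold this was so of Snord57 alone, against the same length (0.987). Snord45c ranged from 2.02 to 2.64, Snord78 from 1.46 to 5.09 and Snord82 from 0.580 to 0.740. Counts under DESeq2 size factors, shared tags divided, tags of 1 gene only, other small RNA matches left out and all miRNA transcripts as hairpins stayed within 1.5 times.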
